A study of Mus musculus with 12 samples.

Results

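In mouse back skin, 10 genes of the Toll-like receptor (TLR) pathway were followed: the receptors *Tlr7*, *Tlr8*, *Tlr9*, *Tlr3*, *Tlr2* and *Tlr4*, the co-receptor *Cd14*, the chaperone *Unc93b1*, the adaptor *Myd88* and the transcription factor *Irf5*. They were taken by name, because imiquimod (IMQ) is an agonist of TLR7, and are 10 of the 56923 genes in the count table. All 10 passed the filter on low counts, with between 67 and 6342 counts per gene and mouse.

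TLRs are membrane receptors that recognise microbial molecules. TLR7, TLR8 and TLR9 sit in endosomes and TLR7 recognises single-stranded RNA and small imidazoquinolines such as IMQ, whereas TLR2 and TLR4 act at the cell surface, TLR4 together with CD14. UNC93B1 carries the endosomal receptors to the endosome, and all of these receptors except TLR3 signal through MYD88 to NF-kB and to IRF factors such as IRF5. In skin the pathway is best known from macrophages, dendritic cells and keratinocytes, and IMQ cream is a common way to raise psoriasis-like lesions in mice.

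RNA-seq was done on the skin of 12 female mice that were 8 to 10 weeks old. There were 3 mice each of WT control, WT IMQ, LCN2 KO control and LCN2 KO IMQ. WT mice were littermates of the *Lcn2*-/- mice, which were on the C57BL/6 background. IMQ mice had 5% IMQ cream on the shaved back for 6 days and control mice had vehicle cream, although the sample labels give their treatment as none and the genotype as a knockdown. Nothing in the labels ties a mouse of 1 group to a mouse of another.

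*Lcn2*, the targeted gene, was read in every library of the LCN2 KO groups, at 320, 173 and 357 counts without IMQ and at 561, 511 and 830 counts with it. The WT libraries held 136, 201 and 86 counts as controls and 1010, 2723 and 1572 with IMQ. The KO control mice, at between 9.22 and 15.9 CPM (counts scaled to library size), stood above the WT control mice, at between 4.57 and 8.64, and the KO groups are therefore called mice labelled *Lcn2*-/-. The counts do not say whether the reads lie in the deleted part of the gene. Library totals lay between 16448226 and 28592110 counts. The extraction text of the sample labels names retinas, but 7 retina markers summed to between 0.471 and 2.91 CPM per library, with *Nrl* and *Crx* at 0 in all 12, while 8 keratinocyte markers summed to between 4616 and 37925 CPM.

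The promoter stretches of a receptor and of the shared adaptor are shown, because *Tlr8* had the largest IMQ response of the 6 receptors followed among mice labelled *Lcn2*-/- and *Myd88* was higher with IMQ in both genotypes with the smallest standard error. Both come from the RefSeq promoter table (GRCm38.p6), which matched 6 of the 10 members by symbol, namely *Tlr2*, *Tlr3*, *Tlr8*, *Tlr9*, *Myd88* and *Irf5*. Each is written 5′ to 3′ on the minus strand and ends at the base before the transcription start (*Tlr8*) or, for *Myd88*, short of it, where an annotated exon begins. The *Myd88* stretch lies inside the span of the annotated gene and outside its exons. Capitals mark a match, on either strand, to GAAANNGAA, the core letters of interferon-stimulated response elements.
*Tlr8*, chrX:167264330-167264579: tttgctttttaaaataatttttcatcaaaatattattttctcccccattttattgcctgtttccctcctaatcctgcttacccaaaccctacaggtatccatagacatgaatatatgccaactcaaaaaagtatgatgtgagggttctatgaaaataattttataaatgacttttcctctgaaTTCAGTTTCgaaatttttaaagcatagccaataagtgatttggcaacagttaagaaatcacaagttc
*Myd88*, chr9:119340042-119340268: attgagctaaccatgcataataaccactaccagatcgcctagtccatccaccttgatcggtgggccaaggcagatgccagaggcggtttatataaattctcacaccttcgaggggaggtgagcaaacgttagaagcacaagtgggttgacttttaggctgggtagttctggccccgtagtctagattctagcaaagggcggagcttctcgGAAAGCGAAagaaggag
In the 250 bases before each start, 3 strings were searched on both strands, chosen with the members' promoters already seen, and their matches in the members did not overlap. GAAANNGAA was present in 7.13% of the 32851 promoters and, of the 6 members, in *Tlr8*, 59 bases upstream of its start and on the opposite strand, and in *Myd88*, 32 bases upstream. The NF-kB consensus was present in 3.90% of promoters and in *Tlr2* and *Tlr3*. GAGGAAGT, a PU.1-type string, was present in 2.44% of promoters and in none of the 6 members. These matches describe letters and say nothing about whether a factor binds there.

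In GRCm38, *Tlr7* (chrX:167304929-167330558) and *Tlr8* (chrX:167242696-167264329) are neighbours on the minus strand, 40599 bases apart. *Tlr9* lies at chr9:106222598-106226883, *Tlr3* at chr8:45395665-45411080, *Unc93b1* at chr19:3935186-3949340, *Tlr2* at chr3:83836272-83841767, *Tlr4* at chr4:66827584-66930284, *Cd14* at chr18:36725067-36726798, *Myd88* at chr9:119335934-119341411 and *Irf5* at chr6:29526625-29541871. Reads on *Tlr3* cannot be told apart from those of the antisense gene *Gm45542* where these overlap, and the same holds for *Irf5* with *Tnpo3* and for *Myd88* with *Acaa1a* on the opposite strand and *Slc22a14* on the same strand.

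*Unc93b1* had the highest level per exon length of the 10 genes in every group. Expressed as CPM per kilobase of exon (mean ± SD, n = 3), its level was 45.5 ± 24.6 in WT control, 68.1 ± 26.9 in WT IMQ, 23.5 ± 9.56 in control mice labelled *Lcn2*-/- and 116 ± 13.8 in IMQ mice labelled *Lcn2*-/-. *Tlr7* stood at 8.93 ± 6.39, 8.03 ± 2.81, 4.82 ± 1.27 and 19.3 ± 1.43 in the same order, and *Tlr8* at 8.39 ± 5.52, 11.6 ± 3.48, 4.67 ± 1.97 and 21.8 ± 4.45. *Tlr7* and *Tlr8* were next to each other in 3 of the 4 orders and did not differ there by more than their combined SD. At the low end were *Tlr9*, between 2.23 and 5.20, and *Tlr3*, between 1.98 and 4.51. In WT control, only the step from *Unc93b1* to *Cd14* was larger than the combined SD of the neighbours. In IMQ mice labelled *Lcn2*-/-, 6 of the 9 steps were: *Unc93b1* stood above *Cd14*, *Cd14* above *Myd88*, *Irf5* above *Tlr2*, *Tlr2* above *Tlr4*, *Tlr4* above *Tlr9* and *Tlr9* above *Tlr3*, while *Myd88*, *Tlr8*, *Tlr7* and *Irf5* followed each other without such a step.

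**Figure D1:**
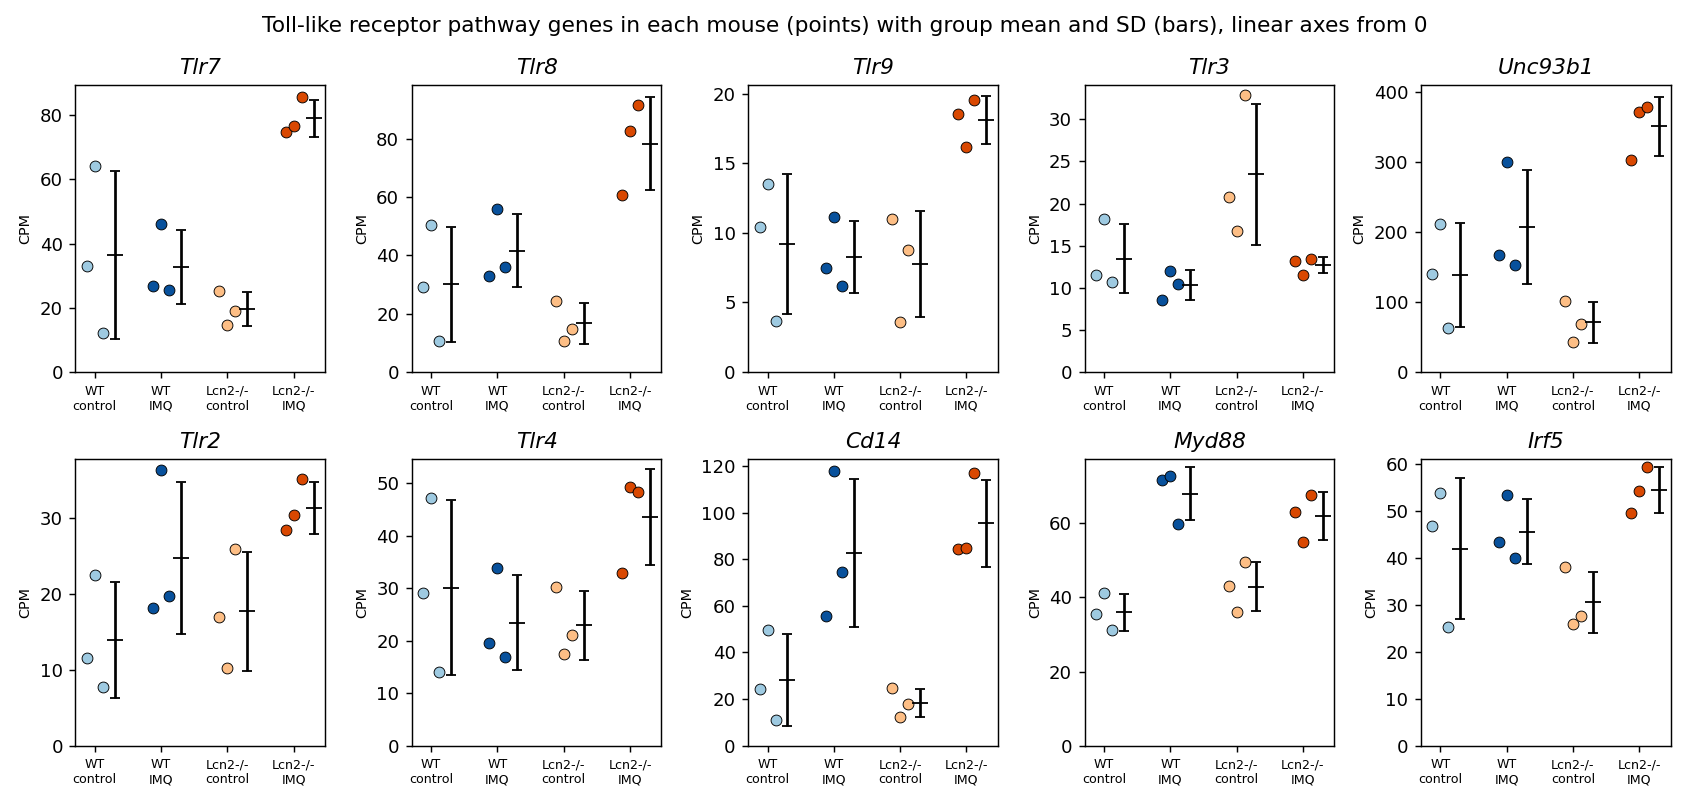
CPM of each of the 10 genes (vertical axes, linear from 0) in each mouse (points) of the 4 groups, with the mean and SD of 3 mice beside them. IMQ mice labelled Lcn2-/- had between 74.6 and 85.6 CPM of Tlr7, above every mouse of the other groups, whereas the WT control mice spread from 12.2 to 64.0.

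IMQ against control was tested in each genotype with edgeR, and a gene was called at an adjusted p under 0.05. In WT mice, 2 of the 10 members were called higher (14.2% of the 18529 genes tested) and 0 lower (14.3% of all genes). Among mice labelled *Lcn2*-/-, 6 members were called higher (14.1% of all genes) and 1 lower (11.2%). The median log2 fold change of the members was 0.29 in WT and 1.07 in mice labelled *Lcn2*-/-, against -0.02 and -0.05 over all genes tested. IMQ and control values did not overlap for 2 members in WT (40.6% of all genes) and for all 10 in mice labelled *Lcn2*-/- (45.9%). In bulk skin, fewer cells of a type and less RNA per cell cannot be told apart. These comparisons have 3 mice a group, and the p-values measure only the spread between these samples.

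**Figure D2:**
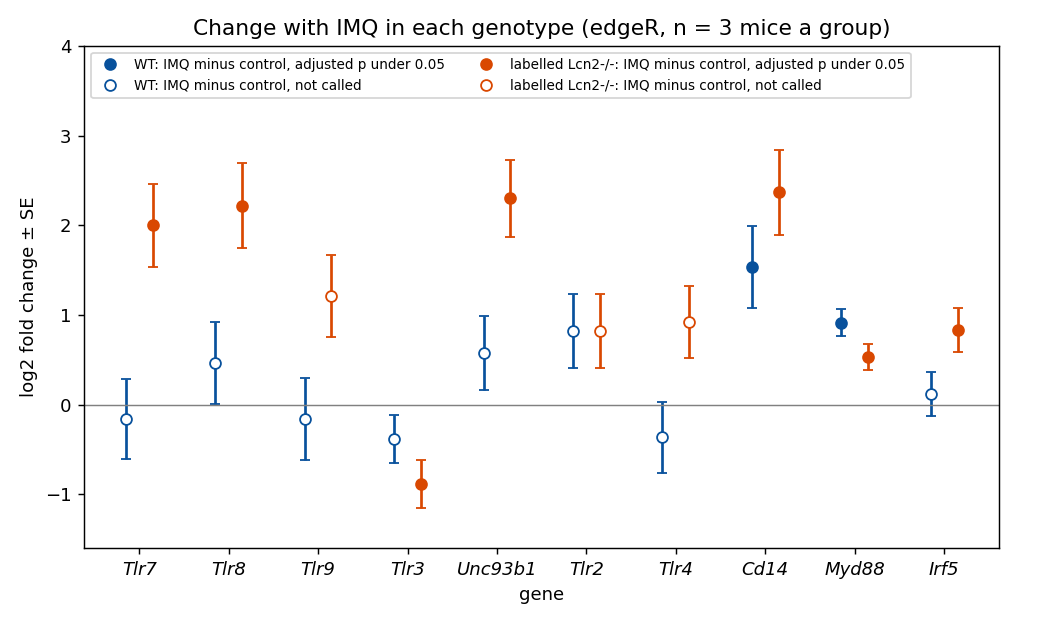
The log2 fold change of IMQ over control (vertical axis, with SE from edgeR) for each gene (horizontal axis) in WT mice and in mice labelled Lcn2-/-, with filled points for adjusted p under 0.05. Cd14 and Myd88 are filled in WT, and Tlr7, Tlr8, Unc93b1, Cd14, Myd88, Irf5 and, downward, Tlr3 in mice labelled Lcn2-/-.

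*Tlr7*, the receptor that IMQ engages, rose 4.005-fold with IMQ among mice labelled *Lcn2*-/- and was not called in WT. Its level was 33.0, 64.0 and 12.2 CPM in the WT control mice and 26.8, 46.0 and 25.5 CPM in the WT IMQ mice. It was 25.1, 14.8 and 19.2 CPM in control mice labelled *Lcn2*-/- and 74.6, 76.7 and 85.6 CPM in IMQ mice labelled *Lcn2*-/-. The WT groups overlapped, WT control mouse 2 standing above every WT IMQ mouse, while every IMQ mouse labelled *Lcn2*-/- stood above every other mouse. The log2 fold change was -0.16 ± 0.45 (SE) in WT (edgeR adjusted p = 0.826) and 2.00 ± 0.46 in mice labelled *Lcn2*-/- (edgeR adjusted p = 0.00985). Without WT control mouse 2 the WT value turned to 0.53 (adjusted p = 0.359). The call in mice labelled *Lcn2*-/- was lost without the filter on low counts (adjusted p = 0.0543) and held with each mouse left out.

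*Tlr8*, the neighbour of *Tlr7*, rose among mice labelled *Lcn2*-/-. Its level was 29.2, 50.3 and 10.8 CPM in WT control and 33.0, 55.9 and 36.0 CPM in WT IMQ. Control mice labelled *Lcn2*-/- had 24.5, 10.8 and 14.9 CPM and IMQ mice 60.6, 82.8 and 91.6 CPM. The WT groups overlapped and those labelled *Lcn2*-/- did not. The log2 fold change was 0.46 ± 0.46 in WT (edgeR adjusted p = 0.479) and 2.22 ± 0.47 in mice labelled *Lcn2*-/- (edgeR adjusted p = 0.00661).

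The ratio of *Tlr8* to *Tlr7* CPM within a mouse was higher in every WT IMQ mouse than in every WT control mouse. It was 0.883, 0.786 and 0.883 in WT control mice and 1.23, 1.22 and 1.41 in WT IMQ mice, with a two-sided exact permutation p of 0.1, the smallest that 3 mice against 3 allow. For mice labelled *Lcn2*-/- the ratio was 0.978, 0.729 and 0.779 without and 0.813, 1.08 and 1.07 with IMQ, and these values overlapped (exact permutation p = 0.2). The ratio cancels a factor that scales *Tlr7* and *Tlr8* alike in a library.

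*Tlr9*, which recognises unmethylated CpG DNA, was not called in either genotype. It stood at 10.4, 13.5 and 3.67 CPM in WT control and at 7.51, 11.2 and 6.15 CPM in WT IMQ. It was 11.0, 3.57 and 8.75 CPM in control mice labelled *Lcn2*-/- and 18.6, 16.2 and 19.5 CPM in IMQ mice labelled *Lcn2*-/-. The latter values did not overlap, with a log2 fold change of 1.21 ± 0.46 (edgeR adjusted p = 0.0738). It passed the threshold with DESeq2 (adjusted p = 0.0312) and with edgeR on those 6 mice alone (adjusted p = 0.0383).

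*Tlr3*, the sensor of double-stranded RNA that signals through TICAM1, was the member called lower, in mice labelled *Lcn2*-/-. Its level was 20.7, 16.8 and 32.9 CPM in their control mice and 13.1, 11.6 and 13.4 CPM with IMQ, a log2 fold change of -0.89 ± 0.27 (edgeR adjusted p = 0.0306). The call was lost without control mouse 3, which had the highest value (log2 fold change -0.57, adjusted p = 0.139), and without IMQ mouse 1, 2 or 3 (adjusted p between 0.0711 and 0.0969). WT mice had 11.6, 18.1 and 10.6 CPM as controls and 8.54, 12.03 and 10.4 CPM with IMQ, which overlapped (log2 fold change -0.38 ± 0.27, edgeR adjusted p = 0.310).

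*Unc93b1*, the chaperone that delivers the endosomal receptors, rose among mice labelled *Lcn2*-/-, by 2.30 ± 0.43 on the log2 scale (edgeR adjusted p = 0.00346). Its values there were 101, 43.4 and 68.7 CPM without IMQ and 302, 371 and 378 CPM with IMQ. WT control mice had 140, 211 and 62.6 CPM and WT IMQ mice 166, 300 and 153 CPM. The WT groups overlapped, with a log2 fold change of 0.58 ± 0.41 (edgeR adjusted p = 0.321).

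*Tlr2*, which recognises bacterial lipoproteins at the cell surface, had like log2 fold changes in both genotypes and was called in neither. WT mice had 11.6, 22.4 and 7.76 CPM as controls and 18.2, 36.3 and 19.7 CPM with IMQ, a log2 fold change of 0.82 ± 0.41 (edgeR adjusted p = 0.159). Mice labelled *Lcn2*-/- had 16.9, 10.3 and 25.9 CPM as controls and 28.5, 30.3 and 35.1 CPM with IMQ, a log2 fold change of 0.82 ± 0.41 (edgeR adjusted p = 0.164). The WT groups overlapped. Without WT control mouse 2, *Tlr2* was called in WT (log2 fold change 1.35, adjusted p = 0.0339).

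*Tlr4*, the receptor for lipopolysaccharide, was not called in either genotype. Its level was 29.0, 47.2 and 14.0 CPM in WT control and 19.6, 33.9 and 16.95 CPM in WT IMQ, with overlap. It was 30.3, 17.4 and 21.03 CPM in control mice labelled *Lcn2*-/- and 33.0, 49.3 and 48.4 CPM with IMQ. The log2 fold changes were -0.36 ± 0.40 (edgeR adjusted p = 0.530) and 0.92 ± 0.40 (edgeR adjusted p = 0.111). The latter was called by edgeR on those 6 mice alone (adjusted p = 0.0241), and the former turned to 0.13 without WT control mouse 2.

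*Cd14*, the co-receptor that hands lipopolysaccharide to TLR4, rose with IMQ in both genotypes. It was 24.2, 49.8 and 11.1 CPM in WT control and 55.5, 118 and 74.5 CPM in WT IMQ, a log2 fold change of 1.54 ± 0.46 (edgeR adjusted p = 0.0273). It was 24.7, 12.5 and 18.0 CPM in control mice labelled *Lcn2*-/- and 84.5, 84.7 and 117 CPM with IMQ, a log2 fold change of 2.37 ± 0.47 (edgeR adjusted p = 0.00462). Neither pair of groups overlapped. The WT call was lost without WT control mouse 1 or 3, without WT IMQ mouse 2 or 3 (adjusted p between 0.0541 and 0.0968), without the filter (adjusted p = 0.125) and on the 6 WT mice alone (adjusted p = 0.0757).

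*Myd88*, the adaptor of every TLR followed here except TLR3, rose in both genotypes, with the smallest standard error of the 10 genes. Its level was 35.5, 41.2 and 31.2 CPM in WT control and 71.6, 72.7 and 59.7 CPM in WT IMQ, a log2 fold change of 0.92 ± 0.15 (edgeR adjusted p = 0.000982). Mice labelled *Lcn2*-/- had 43.1, 36.2 and 49.4 CPM without and 63.1, 55.1 and 67.7 CPM with IMQ, a log2 fold change of 0.53 ± 0.15 (edgeR adjusted p = 0.0222). Neither pair of groups overlapped. The WT call held with each mouse left out, and the other was lost without control mouse 2 or without IMQ mouse 1 or 3 (adjusted p between 0.0613 and 0.0868).

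*Irf5*, a transcription factor activated downstream of MYD88, rose among mice labelled *Lcn2*-/- from 38.0, 25.8 and 27.6 CPM to 49.6, 54.1 and 59.3 CPM. The log2 fold change was 0.83 ± 0.25 (edgeR adjusted p = 0.0293), and leaving out any of these mice except control mouse 1 lost the call (adjusted p between 0.0521 and 0.0977), as did dropping the filter (adjusted p = 0.0542). WT mice had 46.9, 53.8 and 25.2 CPM as controls and 43.3, 53.3 and 40.0 CPM with IMQ. These overlapped, with a log2 fold change of 0.12 ± 0.24 (edgeR adjusted p = 0.758).

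Whether the IMQ response of the members differed between genotypes was tested as an interaction, and 0 of the 10 members were called by edgeR, with 1.37% of all genes called with a larger and 0.783% with a smaller response in mice labelled *Lcn2*-/-. At an unadjusted p under 0.05 there were 4 members (24.1% of all genes), namely *Tlr7*, *Tlr8*, *Unc93b1* and *Tlr4*. DESeq2 called 3 (10.3% of the 18576 genes to which it gave an adjusted p), namely *Tlr7*, *Tlr8* and *Unc93b1*. On counts simulated for the WT comparison with known changes, 36 of 178 DESeq2 calls and 3 of 123 edgeR calls were false, and the interaction was not simulated. Those counts were drawn with edgeR's own estimates of the spread. Of 18529 genes, 100 were changed by a fold of 4 and 100 by a fold of 2, far fewer than were called in the real data. The false shares therefore do not carry over to the calls given here. The difference for *Tlr7* was 2.16 ± 0.64 on the log2 scale (edgeR adjusted p = 0.0877, DESeq2 adjusted p = 0.0118). It was 1.76 ± 0.65 for *Tlr8* and 1.72 ± 0.59 for *Unc93b1* (edgeR adjusted p = 0.136 and 0.116, DESeq2 adjusted p = 0.0495 and 0.0329). The edgeR calls of members changed when either of 2 WT mice was left out. Without WT control mouse 3, *Tlr7*, *Tlr8*, *Unc93b1* and *Irf5* were called (adjusted p = 0.0163, 0.0346, 0.0385 and 0.0432). That mouse had the lowest WT control value of each of these genes. Without WT IMQ mouse 2, *Tlr7* was called (adjusted p = 0.0486). The share of all genes called with either mouse left out is not given here, so these calls cannot be set against it.

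IMQ mice labelled *Lcn2*-/- were also compared directly with WT IMQ mice, and edgeR called 0 members, with 2.19% of all genes called higher and 2.60% lower. At an unadjusted p under 0.05 there were 3 members, all higher (27.0% of all genes): *Tlr7* with a log2 fold change of 1.27 ± 0.45, *Tlr9* with 1.13 ± 0.46 and *Tlr4* with 0.89 ± 0.40 (edgeR adjusted p = 0.107, 0.146 and 0.177). DESeq2 called *Tlr7* (adjusted p = 0.0315; 13.2% of all genes). On these 6 mice alone, edgeR called *Tlr7*, *Tlr8* and *Tlr9* (adjusted p = 0.0174, 0.0379 and 0.0249). The share of all genes called in that fit is not given here, so this count cannot be set against it. The groups did not overlap for *Tlr7*, *Tlr8*, *Tlr9* and *Unc93b1*, 4 of the 10 members (33.3% of all genes).

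Between the control groups, 0 members were called by edgeR and 0 by DESeq2, with 0.00540% of all genes called higher and 0.00540% lower by edgeR and 0.565% called by DESeq2. At an unadjusted p under 0.05 there were 2 members (6.60% of all genes). *Tlr3* was higher in control mice labelled *Lcn2*-/- by 0.80 ± 0.26 and *Unc93b1* lower by a log2 fold change of -0.96 ± 0.42 (edgeR adjusted p = 0.639 and 0.749). The control groups overlapped for all 10 members, and the share of all genes without overlap between these groups is not given here. The comparisons share groups. A low value in the control mice labelled *Lcn2*-/- raises their IMQ response and the interaction together, whereas a low value in the WT control mice raises the WT response and lowers the interaction.

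Macrophage and monocyte markers moved with most of the members. The 13 markers, among them *Adgre1*, *Csf1r*, *Cd68*, *Mrc1* and *Itgam*, summed to 2317, 4293 and 1035 CPM in WT control mice and to 2465, 4066 and 2325 CPM in WT IMQ mice. They summed to 1817, 973 and 1189 CPM in control mice labelled *Lcn2*-/- and to 3859, 4841 and 5244 CPM with IMQ. WT control mice 2 and 3, at the ends of the *Tlr7* range, were also at the ends of the marker range. In mice labelled *Lcn2*-/-, 10 of the 13 markers were called higher with IMQ and 0 lower, their median log2 fold change being 1.79, and 2 were in WT, where the median was 0.09. Of these, *Itgam* rose by 2.75 ± 0.53, *Adgre1* by 2.42 ± 0.44, *C1qc* by 2.13 ± 0.47 and *Cd68* by 2.10 ± 0.38 in mice labelled *Lcn2*-/- (edgeR adjusted p = 0.00387, 0.00293, 0.00782 and 0.00296). The part of the macrophage level in the member values was not tested.

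**Figure D3:**
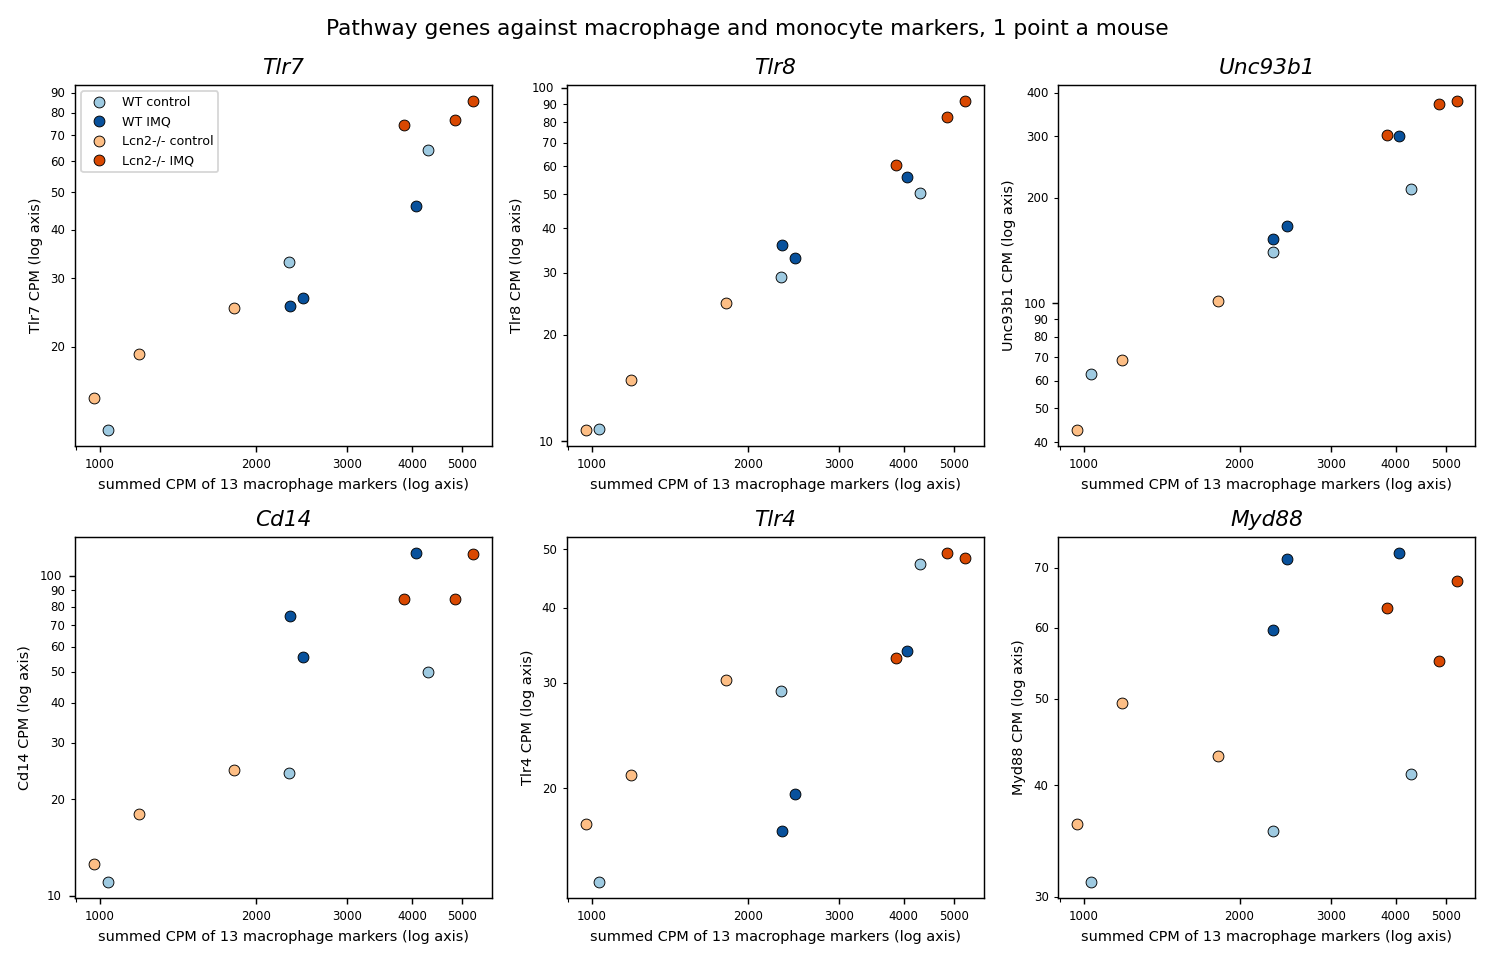
CPM of 6 genes (vertical axes, log) against the summed CPM of the 13 macrophage and monocyte markers (horizontal axes, log), with 1 point a mouse, coloured by group. Tlr7, Tlr8 and Unc93b1 climb with the marker sum across the 12 mice, from 12.2 CPM of Tlr7 at a sum of 1035 to 85.6 CPM at 5244, whereas for Cd14 and Myd88 the 3 WT IMQ mice lie above the WT control mice.

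Set against this marker sum, the members differed. Per 1000 CPM of summed macrophage markers, *Tlr7* stood between 11.8 and 14.9 CPM in WT control, between 10.9 and 11.3 in WT IMQ, between 13.8 and 16.1 in control mice labelled *Lcn2*-/- and between 15.8 and 19.3 with IMQ. Its value was thus lower in the 3 WT IMQ mice than in any other mouse, and overlapped between the groups labelled *Lcn2*-/-. In WT the markers did not move alike, so these ratios depend on which markers are summed. *Adgre1* and *Itgam* were called higher there, by 1.68 ± 0.43 and 1.56 ± 0.51 (edgeR adjusted p = 0.0130 and 0.0384). *Ccr2*, which was not called, went from a mean of 107 ± 47.1 to 50.9 ± 7.81 CPM (SD). *Tlr8* per 1000 CPM of markers was higher with IMQ in every mouse of either genotype, at 13.4 to 15.5 against 10.4 to 12.6 in WT and at 15.7 to 17.5 against 11.1 to 13.5 in mice labelled *Lcn2*-/-. *Unc93b1* was likewise higher, at 65.6 to 73.8 against 49.3 to 60.5 in WT and at 72.1 to 78.4 against 44.6 to 57.8 in mice labelled *Lcn2*-/-.

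*Cd14* showed the largest shift of these ratios in WT. It went from between 10.4 and 11.6 per 1000 CPM of markers in WT control to between 22.5 and 32.1 in WT IMQ, and from between 12.9 and 15.1 to between 17.5 and 22.3 in mice labelled *Lcn2*-/-. *Tlr4* was lower with IMQ in both genotypes, at 7.29 to 8.33 against 11.0 to 13.5 in WT and at 8.54 to 10.2 against 16.7 to 17.9 in mice labelled *Lcn2*-/-. *Irf5* and *Myd88* were lower with IMQ in mice labelled *Lcn2*-/-, *Irf5* at 11.2 to 12.8 against 20.9 to 26.6 and *Myd88* at 11.4 to 16.3 against 23.7 to 41.6, and overlapped in WT. *Tlr3* went from between 11.4 and 27.6 to between 2.39 and 3.40 in mice labelled *Lcn2*-/-. These ratios are descriptions, since other skin cells also express *Myd88*, *Tlr2*, *Tlr3* and *Tlr4*.

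Other cells that carry TLR7 or TLR9 were read through their own markers. Of 7 markers of plasmacytoid dendritic cells, cells known for high TLR7 and TLR9, *Pacsin1* and *Klk1* were too low to test, with at most 13 and 10 counts in a library. The 5 tested markers did not move one way, with 1 called higher and 2 lower in WT and 1 higher and 1 lower in mice labelled *Lcn2*-/-. *Ccr9*, a chemokine receptor, was called higher in both genotypes, by 1.05 ± 0.31 and 1.09 ± 0.31 (edgeR adjusted p = 0.0249 and 0.0245), in 5 and 6 of 11 alternatives. *Cox6a2*, also a muscle subunit of cytochrome c oxidase, was called lower in WT (-1.12 ± 0.23, edgeR adjusted p = 0.00463), and the transcription factor *Bcl11a* lower in mice labelled *Lcn2*-/- (-1.23 ± 0.38, edgeR adjusted p = 0.0346). *Siglech*, which defines these cells, fell in WT with IMQ by a log2 fold change of -1.80 ± 0.48 and was higher in IMQ mice labelled *Lcn2*-/- than in WT IMQ by 2.00 ± 0.48 (edgeR adjusted p = 0.0158 and 0.0429). It stood at 3.00, 2.79 and 2.02 CPM in WT control, 0.485, 1.14 and 0.630 CPM in WT IMQ, 3.19, 1.12 and 2.63 CPM in control mice labelled *Lcn2*-/- and 4.46, 2.05 and 2.52 CPM in IMQ mice labelled *Lcn2*-/-, whose groups overlapped. The WT call was lost without WT IMQ mouse 1 or 3, and the call between the IMQ groups held in 5 of 11 alternatives and was lost without WT IMQ mouse 1 or 3 and without any IMQ mouse labelled *Lcn2*-/- (adjusted p of up to 0.196).

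The B cell markers *Ms4a1*, *Cd79a* and *Pax5* were too low to test, with at most 10, 33 and 11 counts. *Cd79b*, a chain of the B cell receptor and the one marker of that list that was tested, rose in both genotypes. It went from 1.48, 2.49 and 1.38 CPM to 3.21, 5.38 and 2.66 CPM in WT, by 1.06 ± 0.35 on the log2 scale (edgeR adjusted p = 0.0435), and from 1.87, 0.959 and 1.25 CPM to 9.52, 7.07 and 8.04 CPM in mice labelled *Lcn2*-/-, by 2.57 ± 0.36 (edgeR adjusted p = 0.000663). Neither pair of groups overlapped. The WT call held in 4 of 11 alternatives, being lost without WT control mouse 1 or 3 or WT IMQ mouse 1 or 2, and the other held in all 11. Of 9 neutrophil markers 7 were tested, of which 6 were called higher with IMQ in WT and 7 in mice labelled *Lcn2*-/-, and their sum was between 7.23 and 30.5 CPM in the control mice and between 143 and 495 CPM in the IMQ mice. Mast cell markers were called higher for 3 of 6 in mice labelled *Lcn2*-/- and for 0 in WT, and markers of conventional dendritic and Langerhans cells lower for 3 and 4 of 7. Epidermal keratinocyte markers were called higher for 7 of 8 in WT and 5 in mice labelled *Lcn2*-/-, endothelial markers for 3 and 4 of 5, and dermal fibroblast markers for 0 and 4 of 6, with 2 lower in WT. Skeletal muscle markers were called lower for 4 and 2 of 5 and adipocyte markers for 1 and 1 of 5. Their part in the member values was not tested.

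The other receptors of the family gave further calls in mice labelled *Lcn2*-/-. *Tlr13*, an endosomal sensor of bacterial ribosomal RNA, rose by 3.28 ± 0.61 there (edgeR adjusted p = 0.00322), from 9.49, 3.996 and 6.74 CPM to 50.9, 53.5 and 93.6 CPM. In WT its log2 fold change was 1.34 ± 0.57 (edgeR adjusted p = 0.0979). *Tlr1*, a partner of TLR2, rose in both genotypes, by 1.67 ± 0.56 in WT and 2.01 ± 0.57 in mice labelled *Lcn2*-/- (edgeR adjusted p = 0.0454 and 0.0253). These calls held in 4 and 5 of 11 alternatives, and were lost without the filter, without WT control mouse 1 or 3 or WT IMQ mouse 1 or 2, and in mice labelled *Lcn2*-/- without any control mouse or without IMQ mouse 1 or 3 (adjusted p of up to 0.168 and 0.103). *Tlr6*, the other partner of TLR2, and *Tlr5*, the flagellin receptor, rose in mice labelled *Lcn2*-/- by 1.77 ± 0.42 and 1.45 ± 0.34 (edgeR adjusted p = 0.0114 and 0.0113). *Tlr11* fell in WT by a log2 fold change of -3.64 ± 0.55 (edgeR adjusted p = 0.000605), from 4.34, 6.62 and 3.40 CPM to 0.424, 0.605 and 0.145 CPM, the last from 3 counts. In mice labelled *Lcn2*-/- it was not called, with a log2 fold change of -1.33 ± 0.47 (edgeR adjusted p = 0.0590). Its values there went from 4.66, 3.25 and 2.86 CPM to 0.855, 2.40 and 1.02 CPM, without overlap. Of the 5 endosomal TLRs 3 were called higher and 1 lower in mice labelled *Lcn2*-/- and 0 in WT. These include the members *Tlr7*, *Tlr8*, *Tlr9* and *Tlr3*, so that only the call of *Tlr13* adds to those given above. Of the 7 surface and other TLRs, which include the uncalled members *Tlr2* and *Tlr4*, 3 were called higher in mice labelled *Lcn2*-/- and 1 higher and 1 lower in WT.

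**Figure D4:**
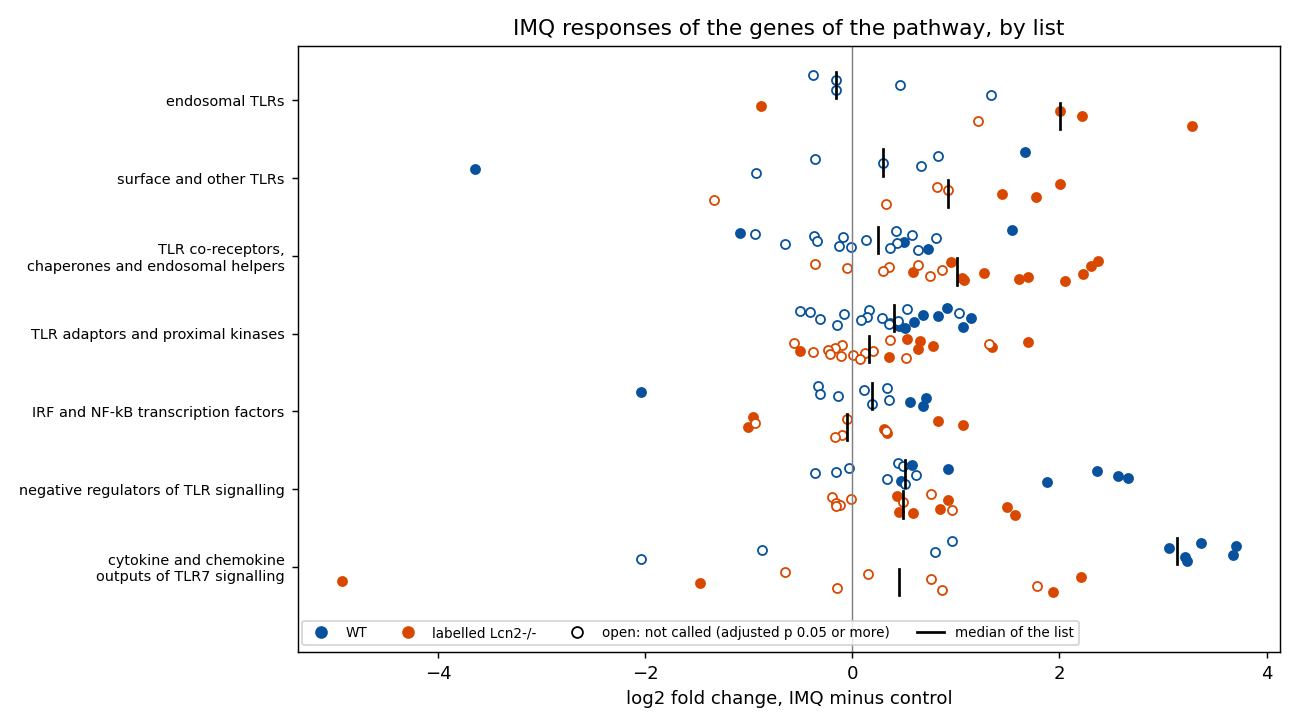
The log2 fold change of IMQ over control (horizontal axis) for every tested gene of 7 pathway lists (rows), in WT mice and in mice labelled Lcn2-/-, with filled points for adjusted p under 0.05 and a bar at each list's median. The median of the endosomal TLRs is -0.16 in WT and 2.00 in mice labelled Lcn2-/-, and that of the cytokines and chemokines 3.13 and 0.45. The endosomal TLRs are the members Tlr7, Tlr8, Tlr9 and Tlr3 together with Tlr13, and both of their medians are the values of Tlr7.

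The median log2 fold change in WT and in mice labelled *Lcn2*-/- was 0.40 and 0.16 for adaptors and proximal kinases, 0.19 and -0.05 for IRF and NF-kB factors and 0.51 and 0.49 for negative regulators, against -0.02 and -0.05 over all genes tested. Co-receptors, chaperones and endosomal helpers were called higher for 11 of 18 genes in mice labelled *Lcn2*-/- and for 3 in WT, with 1 lower in WT, and their median log2 fold changes were 1.01 and 0.25. Besides *Cd14* and *Unc93b1*, *Pld4*, an endosomal exonuclease that degrades single-stranded nucleic acids, rose by 2.23 ± 0.47 and the protease *Lgmn* by 2.06 ± 0.34 in mice labelled *Lcn2*-/- (edgeR adjusted p = 0.00612 and 0.00183). In WT the protease *Ctsl* rose by 0.73 ± 0.18 and *Pld3*, a further exonuclease, by 0.50 ± 0.13, and *Cd36* had a log2 fold change of -1.08 ± 0.33 (edgeR adjusted p = 0.0121, 0.0160 and 0.0299).

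Adaptors and proximal kinases were called in like numbers in the genotypes, with 8 of 22 higher in WT and 7 higher and 1 lower in mice labelled *Lcn2*-/-. In WT the largest changes were in the ubiquitin ligase *Traf6*, 1.15 ± 0.17, the kinase *Ikbke*, 1.07 ± 0.27, *Myd88* and the kinase *Irak4*, 0.83 ± 0.22 (edgeR adjusted p = 0.000469, 0.0127 and 0.0145 for *Traf6*, *Ikbke* and *Irak4*). Among mice labelled *Lcn2*-/- they were in *Ticam2*, an adaptor of TLR4, 1.70 ± 0.35, *Irak4*, 1.35 ± 0.22, the kinase *Irak2*, 0.78 ± 0.22, and *Ticam1*, 0.66 ± 0.19 (edgeR adjusted p = 0.00552, 0.00156, 0.0235 and 0.0272).

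Of 11 IRF and NF-kB factors, 3 were called higher and 1 lower in WT and 4 higher and 2 lower in mice labelled *Lcn2*-/-. In WT the NF-kB subunits *Nfkb1*, *Rel* and *Rela* rose by 0.72 ± 0.09, 0.68 ± 0.11 and 0.56 ± 0.09, and *Irf7*, the interferon-inducible partner of TLR7 and TLR9 signalling, had a log2 fold change of -2.04 ± 0.45 (edgeR adjusted p = 0.000244, 0.00113, 0.00115 and 0.00640). In mice labelled *Lcn2*-/- the largest changes were in *Irf8*, 1.07 ± 0.30, *Irf9*, -1.004 ± 0.17, *Irf1*, -0.96 ± 0.30, and *Irf5* (edgeR adjusted p = 0.0248, 0.00202 and 0.0367 for *Irf8*, *Irf9* and *Irf1*). *Irf7* was not called there, and went from 94.9, 55.1 and 99.7 CPM to 43.2, 46.5 and 40.4 CPM, without overlap. *Irf9* and *Irf1* are themselves induced by interferon.

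Of the 15 genes listed as negative regulators, 7 were called higher in each genotype. Whether each of them restrains signalling in this skin was not tested. In WT the largest changes were in the RNase *Zc3h12a*, 2.66 ± 0.18, the cytokine signalling inhibitor *Socs3*, 2.57 ± 0.36, the nuclear IkB protein *Nfkbiz*, 2.36 ± 0.30, and the interleukin-1 receptor antagonist *Il1rn*, 1.88 ± 0.19 (edgeR adjusted p = 2.18e-06, 0.000428, 0.000213 and 3.54e-05). Among mice labelled *Lcn2*-/- they were in the phosphatase *Dusp1*, 1.57 ± 0.50, *Socs3*, 1.49 ± 0.35, the NF-kB inhibitor *Nfkbia*, 0.92 ± 0.24, and *Zc3h12a*, 0.85 ± 0.17 (edgeR adjusted p = 0.0400, 0.0103, 0.0161 and 0.00411). The *Dusp1* call held in 4 of 11 alternatives (adjusted p of up to 0.159).

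Cytokines and chemokines downstream of TLR7 were called higher for 6 of the 10 tested genes in WT and for 2 in mice labelled *Lcn2*-/-, where 2 more were lower. *Ifnb1* and *Il12b*, of the 12 on the list, were too low to test. *Il1b* rose by 3.70 ± 0.55, *Ccl3* by 3.67 ± 1.21, *Il6* by 3.37 ± 0.83 and *Ptgs2*, the inducible prostaglandin synthase, by 3.24 ± 0.43 in WT (edgeR adjusted p = 0.000645, 0.0404, 0.0108 and 0.000289). *Ccl3* rested on 1, 15 and 3 counts in WT control and 1, 59 and 150 counts in WT IMQ, which overlapped, and *Il6* on 5, 19 and 0 counts and 58, 48 and 95 counts. In mice labelled *Lcn2*-/-, *Il1b* rose by 2.21 ± 0.51 and *Ptgs2* by 1.94 ± 0.41, while *Ccl2* had a log2 fold change of -1.47 ± 0.49 (edgeR adjusted p = 0.0101, 0.00640 and 0.0463).

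*Cxcl10*, an interferon-induced chemokine, was at its highest in control mice labelled *Lcn2*-/-, at 99.7, 46.9 and 171 CPM. It was between 1.70 and 5.58 CPM in every other mouse. Control mice labelled *Lcn2*-/- were above WT control by 4.52 ± 0.50, and IMQ lowered *Cxcl10* among mice labelled *Lcn2*-/-, with a log2 fold change of -4.93 ± 0.51 (edgeR adjusted p = 0.0132 and 0.000114). The call between the control groups held in 5 of 11 alternatives and was lost without WT control mouse 1 or 2 or control mouse 3 labelled *Lcn2*-/- (adjusted p of up to 0.759 over the alternatives), and the call with IMQ held in all 11. *Tlr3*, itself inducible by interferon, also had its highest group mean in those control mice, although WT control mouse 2, at 18.1 CPM, stood above their mouse 2, at 16.8 CPM. Control mouse 3 had the highest value of both genes. *Tlr3* was not called between the control groups (edgeR adjusted p = 0.639), and a link between these genes was not tested.

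Likeness to *Tlr7* was described by Pearson's r of log2 CPM, taken as deviations from the 4 group means over the 12 libraries, among 15983 genes with a mean of at least 1 CPM. The 5 genes most like *Tlr7* were *Timd4*, *C5ar1*, *Klhl6*, *Coro2a* and *Plekha2*, with r between 0.986 and 0.991 and Spearman's rho between 0.944 and 0.986. Without WT control mice 2 and 3, which lay farthest from the median, r was between 0.939 and 0.978. Of the members, *Tlr8* (r = 0.966) and *Cd14* (r = 0.965) were the most like *Tlr7*, followed by *Unc93b1*, *Tlr4* and *Irf5* (r between 0.951 and 0.952), *Tlr9* (r = 0.897) and *Tlr2* (r = 0.825). *Myd88* (r = 0.679) and *Tlr3* (r = 0.623) were the least like it. The 5 genes most like *Tlr2* were *Gbp7*, *Znfx1*, *Cyld*, *Trim56* and *Dtx3l*, with r between 0.972 and 0.981, and of the members *Tlr3* had the highest r (0.922). That order rests on the farthest mice: without WT control mouse 2 and control mouse 3 labelled *Lcn2*-/-, r with *Tlr2* was 0.897 for *Cd14*, 0.890 for *Unc93b1* and 0.866 for *Tlr3*, and over all 12 libraries Spearman's rho was 0.881 for both *Tlr3* and *Tlr7*. The points share their library, its depth and its scaling, and no test was made.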

How the data were processed

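The authors deposited 1 table of raw counts of 12 skin libraries, made from paired reads of 150 bases. The submitters' processing notes list HISAT and the build mm8, and the counting tool, the annotation and the strand setting are not given in the sources used here. Names, positions and exon lengths came from GENCODE M21 (GRCm38), which held 91.5% of the 56923 identifiers, and the rest held 0.567% of the counts. The members and gene lists were chosen with earlier results of these data known.

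The counts were filtered with edgeR 4.0.16 (filterByExpr, at least 10 counts in the smallest group), which left 18529 genes, scaled by TMM and tested by the quasi-likelihood method with 4 group means over the 12 mice in R 4.3.3. Calls used Benjamini-Hochberg adjusted p under 0.05 over all genes, and no fold threshold. CPM are TMM-scaled, and the standard error is the log2 fold change divided by the root of its F value. The floor of 3 counts was between 0.105 and 0.182 CPM, and covers counting error only. The steps were tested on simulated data. No library was a duplicate. Same-numbered mice did not deviate together (mean r -0.051, from -0.55 to 0.20), and no pairing was used in the main fit. Deviations from means of 3 mice cannot settle whether the numbers pair the mice. The 3 libraries of a group were taken as separate mice, which the labels do not state, and no batch is given.

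Alternatives were DESeq2 1.42.0, its size factors in edgeR, no filter on low counts, the compared groups alone, a replicate block, a fold threshold of 2 and each mouse left out. Genes named were all members, at most 4 called genes per list with the largest change and a mean of at least 1 CPM, defining markers near 0, and the 5 genes most like *Tlr7* and *Tlr2*. *Tlr11*, *Tlr5* and *Tlr6* fall under the list rule. *Cxcl10*, *Siglech* and *Cd79b* fall under it as well, and their values by mouse were added after these had been seen.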

Additional observations from a re-analysis of the deposited data

Results flagged for a closer look

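In 10 genes of the pathway and marker lists, each with a mean of at least 1 CPM, the IMQ response differed between the genotypes by the interaction test (edgeR, adjusted p under 0.05), as the difference between the log2 fold change in mice labelled *Lcn2*-/- and that in WT. None of the 10 members was among them.

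Within the pathway, the response was lower in mice labelled *Lcn2*-/- for *Zc3h12a* (-1.81 ± 0.24), *Nfkbiz* (-1.88 ± 0.41), *Il1rn* (-1.29 ± 0.26), *Rel* (-0.85 ± 0.16) and *Cxcl10* (-4.06 ± 0.69), with edgeR adjusted p of 0.0170, 0.0432, 0.0375, 0.0304 and 0.0247. *Zc3h12a*, *Nfkbiz*, *Il1rn* and *Rel* rose with IMQ in WT, by 2.66, 2.36, 1.88 and 0.68 on the log2 scale, and had 0.85, 0.49, 0.59 and -0.17 in mice labelled *Lcn2*-/-. *Cxcl10* had -0.87 in WT and -4.93 in mice labelled *Lcn2*-/-. The response was higher in mice labelled *Lcn2*-/- for *Slc29a3* (0.93 ± 0.19), an endosomal nucleoside transporter, and for the TLR4 adaptor *Ticam2* (2.20 ± 0.49), with edgeR adjusted p of 0.0375 and 0.0449.

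Among the dermal fibroblast markers the collagen genes *Col1a1* (1.37 ± 0.21), *Col1a2* (1.31 ± 0.23) and *Col3a1* (1.36 ± 0.31) had a positive difference (edgeR adjusted p = 0.0195, 0.0262 and 0.0484). *Col1a1* and *Col1a2* went opposite ways in the genotypes, with -0.47 and -0.81 in WT and 0.89 and 0.50 in mice labelled *Lcn2*-/-, all 4 called, and *Col3a1* had 0.15 (not called) and 1.52. *Zc3h12a* kept its call in 12 of 16 alternatives, *Col1a1* in 9, *Col1a2* in 8, *Cxcl10* in 7 and the other 6 genes in 6 each.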

How the results depend on the processing

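Groups of 3 mice with controls that differed up to 5.24-fold in *Tlr7* set the limit here, and calls of the members moved with single mice. Of the members' log2 fold changes under the alternatives, 92 of 110 in mice labelled *Lcn2*-/- and 97 of 110 in WT kept their direction and their side of the threshold, as did 105 of 110 between the IMQ groups, 105 of 110 between the control groups and 145 of 160 for the interaction. The cause of the changes below was not tested.

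In WT, the members called higher were 1 with no filter, 1 on the compared groups alone and 1 with a fold above 2, and between 1 and 3 with a mouse left out. In mice labelled *Lcn2*-/-, the member called lower was lost, giving 0, with a fold above 2 and under the replicate block, and 0 or 1 remained with a mouse left out. The replicate block, which the check of the numbers does not call for, left 6 members called higher there, 2 in WT and 0 in the other comparisons, with *Tlr3* at -0.87 (adjusted p = 0.0538). Between the IMQ groups, 3 were called on the compared groups alone and 1 by DESeq2 (13.2% of all genes by DESeq2). For the interaction, DESeq2 called 3 (10.3% of all genes), and leaving out a mouse gave between 0 and 4. For the alternatives other than DESeq2 the share of all genes called is not given here. Their counts of members therefore show only how the calls moved.

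Some log2 fold changes of members changed sign, none of them called, and their range with a mouse left out was as follows. In WT it was from -0.57 to 0.53 for *Tlr7*, -0.54 to 0.23 for *Tlr9*, -0.73 to 0.13 for *Tlr4* and -0.15 to 0.34 for *Irf5*. Between the IMQ groups it was from -0.010 to 0.56 for *Cd14*. Between the control groups it was from -0.62 to 0.18 for *Tlr9*, -0.030 to 0.90 for *Tlr2*, -0.73 to 0.12 for *Tlr4* and -1.002 to 0.094 for *Cd14*. The interaction of *Tlr2* was 0.011 with no filter and from -0.53 to 0.39 with a mouse left out. WT control mouse 2 set the upper end for *Tlr7*, *Tlr9*, *Tlr4* and *Irf5* in WT.

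Of the calls of other list genes with a mean of at least 1 CPM, 37 of 60 in WT and 46 of 77 in mice labelled *Lcn2*-/- held in every alternative, and 12 and 14 in under 50% of them. Besides *Tlr1*, *Ccr9* and *Cd79b*, the latter include *Itgam*, *Ccl3* and *Col1a1* (4 of 11) and *Cd36* (5 of 11) in WT. In mice labelled *Lcn2*-/- they include *Dusp1*, *Irf1* and *Col1a2* (4 of 11) and *Ticam1* and *Ccl2* (5 of 11). Between the IMQ groups 0 of 15 held in every alternative.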
